A study of Marmota monax with 203 samples.

Results

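The genes described here are 41 genes of DNA replication and of the G1/S transition of the cell cycle, taken by symbol from a fixed list. That list was chosen with earlier results of these data known. All 41 were found among the 17587 genes of the deposited tables. They fall into 7 groups by role: the helicase (MCM2 to MCM7), origin licensing and firing, polymerases and primase, the sliding clamp with its loader and the enzymes of Okazaki fragment maturation, nucleotide supply and repair, chromatin assembly at the fork, and the E2F and cyclin E regulators.

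Before a cell copies its DNA, the origin recognition complex, CDC6 and CDT1 load the MCM2 to MCM7 helicase onto origins in G1, and CDC45 and the GINS complex then turn it on in S phase. Cyclin E and the activating E2F transcription factors drive the G1/S step, and E2F factors in turn switch on many of the genes for replication enzymes. Most hepatocytes of an adult liver are out of the cell cycle, and hepatocytes, other resident cells and activated lymphocytes all use this set of genes when they divide.

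The samples were liver biopsies of adult woodchucks (Marmota monax), all chronically infected with woodchuck hepatitis virus (WHV), a hepadnavirus related to human hepatitis B virus, and infected as newborns. Animals of the first group received recombinant woodchuck interferon-α (wIFN-α) by injection under the skin, 3 times a week for 15 weeks. Animals of the other group received placebo on the same schedule. Each wIFN-α dose was 20 μg for the first 7 weeks (biopsies of weeks 0 and 3). From then on it was 100 μg (biopsies of weeks 7, 11 and 15). The biopsies of weeks 0 to 15 were taken 6 hours after a dose. That dose was the first of 20 μg at week 0 and the first of 100 μg at week 7. Biopsies at week -3 preceded treatment, and those at weeks 19 and 23 followed its end. RNA was measured by poly(A) RNA-seq of whole biopsies, so that fewer dividing cells and less RNA per dividing cell cannot be told apart. There were 11 wIFN-α animals and 12 placebo animals, and the number with a biopsy, wIFN-α against placebo, was 11 and 12 at weeks -3 and 0, 9 and 12 at weeks 3 and 7, 8 and 10 at week 11, 8 and 9 at week 15, 6 and 5 at week 19, and 6 and 9 at week 23. Animal M1004 was left out, as in the study. The comparison at each week asks whether wIFN-α changed the replication genes relative to time-matched placebo animals. The placebo biopsies show how the genes moved over the study without wIFN-α. In them, time, injections, earlier biopsies and changes in which animals were sampled cannot be told apart.

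Gene reads per biopsy ranged from 12072840 to 84805845 (median 28754894). A list of 10 genes of the type I interferon response showed who was exposed: its mean log2 level lay above every placebo animal in 11 of 11 wIFN-α animals at week 0, 9 of 9 at week 7, and 8 of 8 at both week 11 and week 15. At week 3 it did so in 8 of 9, and the ninth, F1013, stood at 3.78, inside the placebo range of 3.74 to 4.40. Biopsies of 4 animals held over 5% of their reads on a list of 20 skeletal muscle genes, against a median of 0.0458% over all biopsies. These were F1016 (12.8%, placebo) and F1018 (13.1%, wIFN-α) at week -3, F1023 (7.29%, wIFN-α) at week 0 and F1021 (11.4%, placebo) at week 3. In the week -3 biopsies of F1016 and F1018 the 12 hepatocyte markers summed to only 527 and 343 CPM (read counts scaled to a common library size), against 97507 to 222813 CPM in the other 21 biopsies of that week, which goes against their label as liver. At week 15 the sequencing runs of placebo animal M1008 that share a barcode differed far beyond counting noise (chi-square per degree of freedom 131, at most 2.47 in the other pairs of that kind), and leaving that animal out of week 15 kept the number of members called at 19. Of the pairs of runs with different barcodes, those of wIFN-α animals F1022 at week 19 (29.9) and M1002 at week -3 (14.7) differed most. The other pairs with different barcodes gave 3.54 to 4.60. With the deepest run of each biopsy alone, 0 members were called at week -3 and at week 19, as with all runs. Counts of members without the muscle biopsies are given beside the counts they change. Lane numbers in the labels recur with the same barcode in different libraries, so they do not identify a sequencing batch, and no values within batches could be had.

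Expression of the members was low but measurable. Reads were found in all 149 biopsies for each member except GINS2 (123 biopsies, at most 15 reads) and TK1 (75 biopsies, at most 7 reads), and these fell under the filter on low counts at every week. POLE2, a subunit of DNA polymerase epsilon, passed the filter at weeks 7, 11, 15 and 23 only. Per kilobase of transcript, the median level of the 34 members with a usable length was 1.91 CPM, compared with 3.63 CPM for 13282 genes. TYMS, thymidylate synthase, was by far the highest at 53.6 CPM per kilobase, followed by the clamp loader subunit RFC5 (10.4) and the ribonucleotide reductase subunit RRM1 (10.3). UHRF1, which brings maintenance DNA methylation to replicated DNA, was the lowest of those tested at 0.225 CPM per kilobase, and CDC45 stood at 0.378.

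The members also differed in how steady they were before treatment. Across the 21 animals at week -3 without muscle RNA, the coefficient of variation in CPM was lowest for RFC5 (7.79%), the primase subunit PRIM1 (12.4%) and RFC3 (13.6%). It was highest for MCM10 (47.1%), E2F1 (44.9%), CDT1 (43.4%) and CCNE2 (42.7%), with a median of 24.5% over 38 members. The muscle biopsies stood apart in this set: 18 members in F1016 and 19 in F1018 lay outside the range of the other biopsies of week -3. CCNE1, which encodes cyclin E1, was 12.2 and 16.2 CPM in these libraries against 0.537 to 1.75 CPM in the rest, while MCM10, which acts in helicase activation, was 1.85 and 1.96 CPM against 14.9 to 87.5 CPM.

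In the comparisons at single weeks, and of placebo weeks with week -3, a gene was called when its Benjamini-Hochberg adjusted p from edgeR's quasi-likelihood test, over all genes tested, was under 0.05 and its fold change was above 1.5. Fold changes are wIFN-α against placebo on the log2 scale, with standard errors (SE), and levels are normalised CPM.

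No member passed the test before treatment. At week -3, 0 of 38 tested members were called, 0 had an unadjusted p under 0.05, DESeq2 also called 0, and the share of all genes called was 0%. Member log2 fold changes ran from -0.24 for CDC6 to 0.35 for MCM10, with a median of 0.02. The count stayed at 0 without the muscle biopsies.

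Relative to placebo at the same week, the members on wIFN-α were first lower and later higher. The placebo group also moved between weeks, as described below. At week 0, 15 of 38 tested members were lower and 0 higher, when 8.15% of all genes were called lower and 10.3% higher, and 31 of the 38 had a negative log2 fold change (median -0.48). At week 3 only 2 members were called, both higher, against 7.24% of all genes (median 0.22). At week 7, 4 of 39 were higher and 1 lower, against 11.4% and 10.1% of all genes (median -0.01). At week 11, 16 of 39 were higher and 0 lower, against 12.6% of all genes called higher (median 0.40). At week 15, 18 of 39 were higher and 1 lower, against 13.4% and 8.83% (median 0.42). After treatment 0 of 38 members were called at week 19 and 0 of 39 at week 23, as were 0% of all genes at each of those weeks. The median log2 fold change over all genes tested stayed between -0.05 and 0.00 at all 8 weeks.

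**Figure D1:**
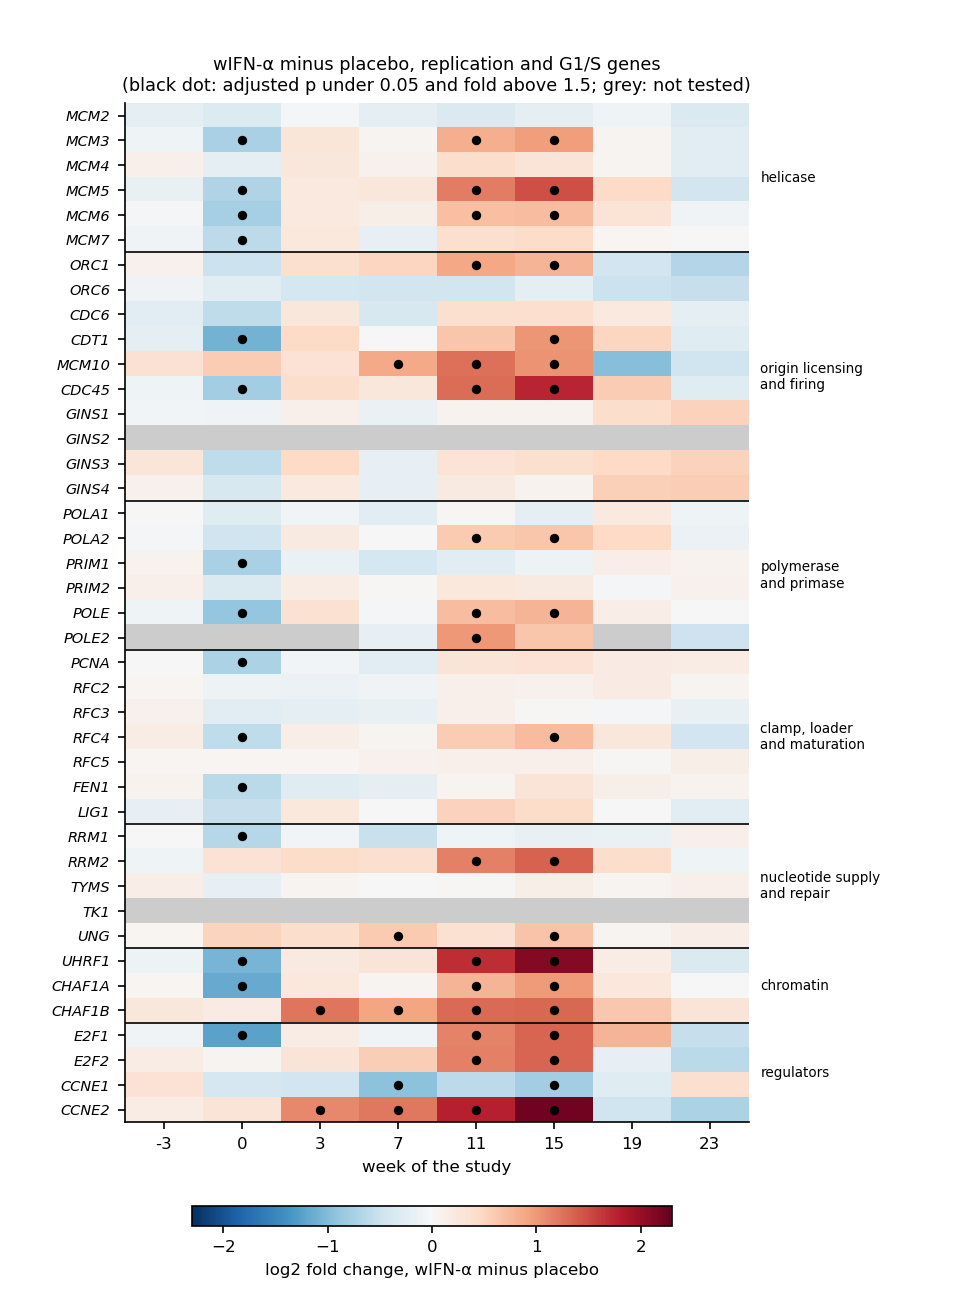
Log2 fold change of each member, wIFN-α against placebo, as colour (red higher, blue lower, grey not tested), with members in rows by role, study weeks in columns and black dots on those called (adjusted p under 0.05 and fold change above 1.5). Week 0 holds 15 dots, all on lower members, weeks 11 and 15 hold 16 and 18 on higher members, and weeks -3, 19 and 23 hold 0.

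At week 0 each of the 7 role groups held at least 1 lower member, with the largest shares in the helicase and chromatin groups. Of the 6 helicase subunits, 4 were lower (median log2 fold change -0.65): MCM3 (-0.74), MCM5 (-0.70), MCM6 (-0.76) and MCM7 (-0.60). MCM5 ranged from 4.98 to 12.5 CPM (median 8.64) in wIFN-α animals and from 5.40 to 32.6 CPM (median 12.3) on placebo, which gave a log2 fold change of -0.70 ± 0.25 (SE, adjusted p = 0.0320). The groups overlapped, although 10 of 11 wIFN-α animals lay below the placebo median. MCM2, the subunit with the highest CPM, ranged from 29.2 to 55.3 CPM (median 34.0) on wIFN-α and from 31.2 to 67.4 CPM (median 48.8) on placebo, and its log2 fold change of -0.31 ± 0.12 did not pass (adjusted p = 0.0524). MCM4 gave -0.20 and was not called.

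Among the licensing and firing factors 2 of 9 tested were lower. CDT1, which loads the helicase, had a log2 fold change of -1.09 (adjusted p = 0.0023), and CDC45, which travels with the active helicase, ranged from 0.253 to 1.57 CPM (median 0.901) against 0.464 to 3.01 CPM (median 1.49), a log2 fold change of -0.80 ± 0.29 (adjusted p = 0.0339). That call lost significance without any of 8 single animals, with adjusted p from 0.0507 to 0.0683. GINS4, a subunit of the GINS complex, ranged from 1.60 to 3.47 CPM (median 2.74) against 2.45 to 4.82 CPM (median 3.47), and at -0.38 ± 0.13 (adjusted p = 0.0263) it stayed under the fold threshold. MCM10 was 1 of 7 members with a positive value: it ranged widely, from 14.9 to 156 CPM (median 56.2) on wIFN-α and from 11.4 to 110 CPM (median 35.3) on placebo, with 0.58 ± 0.36 (adjusted p = 0.222).

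Of the polymerase and primase genes PRIM1 and POLE were lower, and PRIM1 had the lowest adjusted p of the members called at this week. PRIM1, the catalytic subunit that lays down RNA primers, ranged from 3.57 to 7.42 CPM (median 5.48) in wIFN-α animals and from 5.06 to 12.3 CPM (median 9.15) on placebo, which gave a log2 fold change of -0.75 ± 0.13 (adjusted p = 7.51e-05). All 11 wIFN-α animals lay below the placebo median, and 4 of them below every placebo animal. POLE, the leading-strand polymerase, was lower by 0.89 on the log2 scale, whereas POLA1, POLA2 and PRIM2 (-0.28, -0.46 and -0.34) were not called.

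PCNA, the sliding clamp, ranged from 9.40 to 21.4 CPM (median 15.6) on wIFN-α and from 18.0 to 36.3 CPM (median 23.7) on placebo, a log2 fold change of -0.73 ± 0.13 (adjusted p = 0.000135). Here 9 of 11 wIFN-α animals were below every placebo animal. FEN1, the flap endonuclease that trims Okazaki fragments, ranged from 5.08 to 12.6 CPM (median 7.18) against 8.29 to 15.2 CPM (median 12.5), a log2 fold change of -0.63 ± 0.12 (adjusted p = 0.000310), again with 9 of 11 below all placebo values. Of the loader subunits only RFC4 was called (-0.59), and that call was lost without the muscle biopsy F1023. RFC5 hardly moved: it ranged from 25.4 to 31.9 CPM (median 28.6) against 25.5 to 30.3 CPM (median 28.4), a log2 fold change of 0.04 ± 0.05 (adjusted p = 0.625).

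In nucleotide supply and repair 1 of 4 tested members was called, RRM1 at -0.66 (adjusted p = 0.00062). Its partner subunit RRM2 gave 0.33 and the uracil-DNA glycosylase UNG 0.51, and neither passed. TYMS ranged from 58.4 to 145 CPM (median 83.0) on wIFN-α and from 77.5 to 142 CPM (median 101) on placebo, with -0.19 ± 0.12 (adjusted p = 0.253).

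Of the 3 chromatin genes, 2 were lower. CHAF1A, the large subunit of the histone chaperone CAF-1, ranged from 1.17 to 3.51 CPM (median 1.88) on wIFN-α and from 2.81 to 9.68 CPM (median 3.91) on placebo, a log2 fold change of -1.15 ± 0.22 (adjusted p = 0.000238), and 9 of 11 wIFN-α animals lay below every placebo animal. UHRF1 ranged from 0.297 to 1.74 CPM (median 0.576) against 0.580 to 3.32 CPM (median 1.35), a log2 fold change of -1.06 ± 0.31 (adjusted p = 0.0095). The other CAF-1 subunit gene, CHAF1B, gave 0.18 and was not called.

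The regulators split. E2F1 was lower by 1.24 on the log2 scale (adjusted p = 0.0012), the most negative value among the members at week 0. E2F2, also an activating E2F, ranged from 2.84 to 5.08 CPM (median 3.89) on wIFN-α and from 2.76 to 4.77 CPM (median 3.77) on placebo, with 0.06 ± 0.12 (adjusted p = 0.745). CCNE1 ranged from 0.265 to 4.85 CPM (median 0.712) against 0.967 to 2.43 CPM (median 1.58) and was not called, at -0.38 ± 0.37 (adjusted p = 0.457). Its highest wIFN-α value came from F1023, the biopsy with muscle RNA, and without that biopsy CCNE1 was called lower (-0.94, adjusted p = 0.0072). CCNE2, cyclin E2, gave 0.29. Without F1023 the number of members called stayed at 15, with CCNE1 in and RFC4 out.

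**Figure D2:**
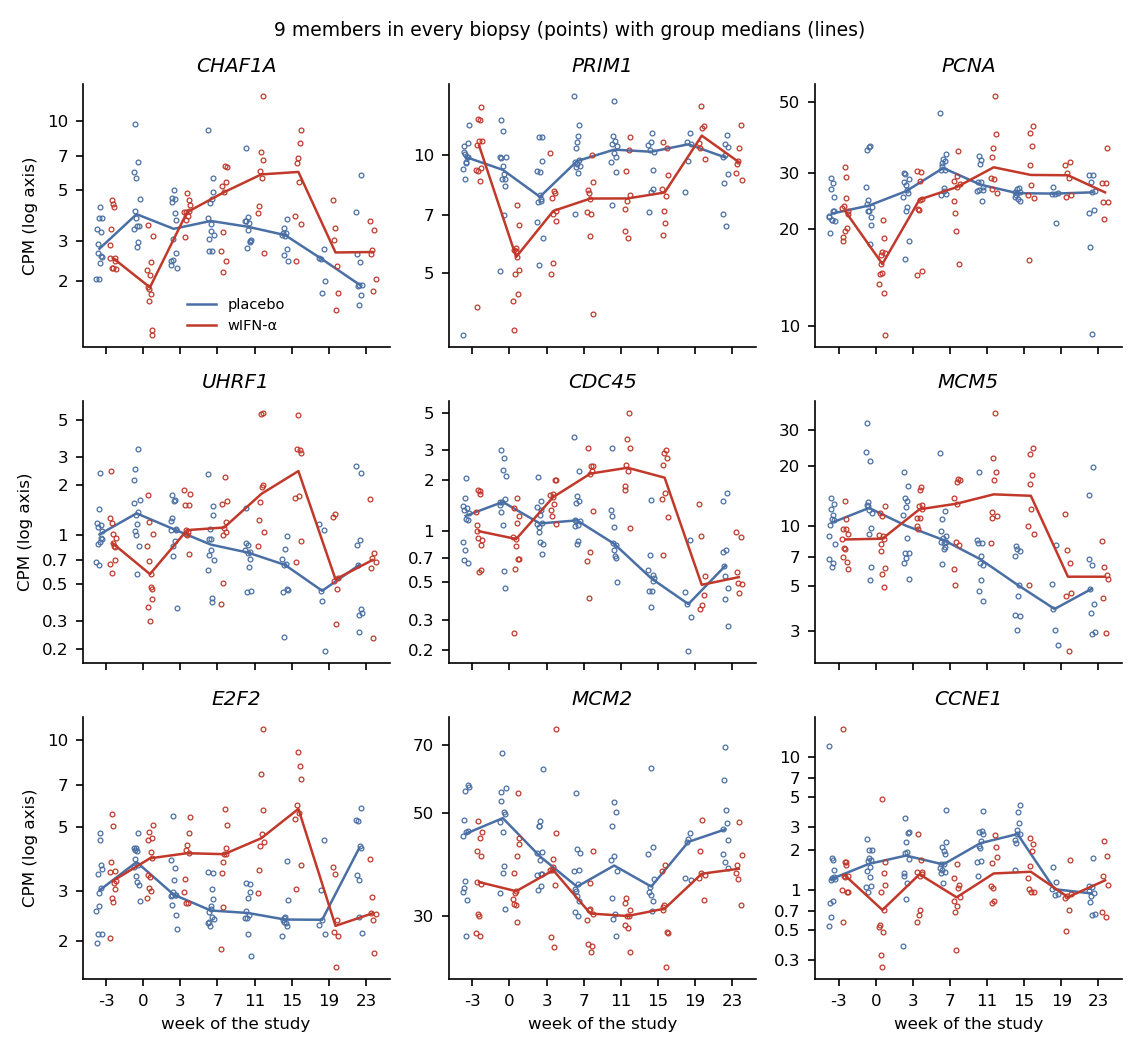
CPM (log axes) of 9 members in every biopsy (points) by study week, with lines through the medians of the placebo and the wIFN-α animals. CHAF1A, PRIM1 and PCNA lay lower on wIFN-α at week 0, UHRF1, CDC45, MCM5 and E2F2 lay higher at weeks 11 and 15, and CCNE1 lay lower at weeks 7 and 15.

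Few members were called during the rest of the low dose and at the first high-dose biopsy. At week 3 those higher were CHAF1B (1.26 to 3.57 CPM, median 2.78, against 0.425 to 1.89 CPM, median 1.28), with a log2 fold change of 1.23 ± 0.21, and CCNE2 (0.521 to 1.73 CPM, median 1.26, against 0.275 to 0.844 CPM, median 0.557), with 1.11 ± 0.21. For each gene at least 7 of 9 wIFN-α values exceeded all placebo values, and both calls held without any single wIFN-α animal, F1013 included. At week 7 CHAF1B (0.90) and CCNE2 (1.22) were higher again, joined by MCM10 (0.88) and UNG (0.61). CCNE1 moved the other way at week 7, ranging from 0.358 to 1.58 CPM (median 0.886) on wIFN-α and from 1.13 to 4.02 CPM (median 1.56) on placebo, a log2 fold change of -0.94 (adjusted p = 0.0026). Cyclin E1 and cyclin E2 bind the same kinase, CDK2, and their transcripts passed the test in opposite directions at this week. The calls of CCNE1 and UNG were lost with all weeks in 1 fit and the lane number as a covariate, and that of MCM10 with all weeks in 1 fit.

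By week 11 the higher calls covered most role groups: 3 of 6 helicase subunits, 3 of 9 licensing and firing factors, 3 of 6 polymerase and primase genes, 1 of 4 nucleotide and repair genes, 3 of 3 chromatin genes and 3 of 4 regulators, but 0 of 7 clamp, loader and maturation genes (median 0.12). CCNE2 had the largest log2 fold change (1.78), and all 8 wIFN-α animals were above every placebo animal. UHRF1 (1.71), CHAF1B (1.30), CDC45 (1.29), MCM10 (1.27), MCM5 (1.18), RRM2 (1.16), E2F2 (1.15) and E2F1 (1.14) followed. POLE2 (0.99), ORC1 (0.89), MCM3 (0.84), CHAF1A (0.78), POLE (0.70), MCM6 (0.69) and POLA2 (0.60) made up the 16. Adjusted p was also under 0.05 for MCM2 (-0.33) and for ORC6 (-0.42), a subunit of the origin recognition complex, both lower and both under the fold threshold. For ORC6, 7 of 8 wIFN-α animals were below every placebo animal.

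At week 15 the calls largely repeated those of week 11, with 15 higher members in common, 93.8% of those at week 11 and 83.3% of those at week 15. Over all genes the shares were close to these, 88.6% and 82.9%, and both weeks sample largely the same animals. UHRF1 ranged from 0.685 to 5.37 CPM (median 2.45) on wIFN-α and from 0.240 to 0.986 CPM (median 0.656) on placebo, a log2 fold change of 2.11 ± 0.37 (adjusted p = 0.000192). The groups overlapped only through the lower wIFN-α animals, since 6 of 8 lay above every placebo animal. CHAF1A ranged from 2.44 to 9.06 CPM (median 5.97) against 2.44 to 3.74 CPM (median 3.17), with 0.97 ± 0.22 (adjusted p = 0.00155). CHAF1B was higher by 1.32, so that all 3 chromatin genes were called.

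MCM5 ranged from 5.09 to 24.5 CPM (median 14.1) on wIFN-α and from 3.02 to 7.94 CPM (median 5.09) on placebo, a log2 fold change of 1.48 ± 0.29 (adjusted p = 0.000611), and 7 of 8 wIFN-α animals exceeded all placebo animals. MCM3 (0.96) and MCM6 (0.72) were also higher, but not MCM4 (0.30) or MCM7 (0.42). MCM2, again apart from the other subunits, ranged from 23.3 to 38.6 CPM (median 31.2) against 30.8 to 62.4 CPM (median 34.8), with -0.23 ± 0.14 (adjusted p = 0.177).

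CDC45 ranged from 0.728 to 2.99 CPM (median 2.07) against 0.359 to 1.52 CPM (median 0.528), a log2 fold change of 1.75 ± 0.32 (adjusted p = 0.000274), with 6 of 8 wIFN-α animals above every placebo animal. MCM10 ranged from 11.4 to 32.0 CPM (median 18.7) against 3.49 to 22.9 CPM (median 6.61), with 1.03 ± 0.32 (adjusted p = 0.0141). Its call was lost when all weeks were fitted together (adjusted p = 0.0595, and 0.126 with the lane number as a covariate). CDT1 (1.02) and ORC1 (0.78) were the other licensing factors called, the latter not in the fit of all weeks with the lane number, and GINS4 ranged from 4.67 to 9.66 CPM (median 6.08) against 5.06 to 10.2 CPM (median 5.89), with 0.08 ± 0.17 (adjusted p = 0.748).

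Among the synthesis enzymes POLE (0.79), POLA2 (0.64) and RFC4 (0.72) were higher at week 15. PRIM1, PCNA and FEN1, all lower at week 0, were not called here. PRIM1 ranged from 6.25 to 10.8 CPM (median 8.01) on wIFN-α and from 7.13 to 11.3 CPM (median 10.2) on placebo (-0.12 ± 0.12, adjusted p = 0.455). PCNA ranged from 16.0 to 42.0 CPM (median 29.6) against a tight 24.5 to 26.9 CPM (median 25.9), so that 5 wIFN-α animals were above and 1 below every placebo animal (0.33 ± 0.14, adjusted p = 0.0731). FEN1 gave 5.05 to 10.4 CPM (median 9.22) against 6.08 to 8.33 CPM (median 7.64; 0.30 ± 0.13, adjusted p = 0.0667). RFC5 was steady once more, from 26.5 to 38.9 CPM (median 32.7) against 29.1 to 35.9 CPM (median 32.3; 0.11 ± 0.07, adjusted p = 0.233).

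For nucleotide supply and repair, RRM2, the ribonucleotide reductase subunit that varies over the cell cycle, was higher by 1.36 ± 0.18 on the log2 scale. It ranged from 14.9 to 45.7 CPM (median 30.2) against 10.8 to 15.1 CPM (median 11.4), and UNG was higher by 0.65. RRM1 (-0.16) was not called, nor was TYMS, which ranged from 68.0 to 129 CPM (median 95.1) against 79.1 to 116 CPM (median 90.9; 0.14 ± 0.12, adjusted p = 0.368).

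The regulators held the highest and the lowest fold change of week 15. CCNE2 ranged from 0.642 to 2.91 CPM (median 2.08) on wIFN-α and from 0.223 to 0.764 CPM (median 0.393) on placebo, a log2 fold change of 2.22 ± 0.29 (adjusted p = 7.71e-06). CCNE1 ranged from 0.963 to 2.46 CPM (median 1.38) against 1.41 to 4.34 CPM (median 2.64), a log2 fold change of -0.80 ± 0.24 (adjusted p = 0.0133). None of the 8 wIFN-α animals reached the placebo median. This lower call was also lost with all weeks in 1 fit (-0.82, adjusted p = 0.114). E2F2 ranged from 3.04 to 9.14 CPM (median 5.78) against 2.09 to 3.80 CPM (median 2.38), with 1.33 ± 0.20 (adjusted p = 4.56e-05), and E2F1 from 0.556 to 4.78 CPM (median 2.41) against 0.409 to 1.52 CPM (median 1.05), with 1.34 ± 0.33 (adjusted p = 0.00357).

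The genes called lower at week 0 and those called higher at week 15 were partly the same. Of the 15 lower at week 0, 10 (66.7%) were higher at week 15, which is 55.6% of the 18 higher there. Over all genes the same shares were 5.18% of those lower at week 0 and 3.09% of those higher at week 15. The 10 members were MCM3, MCM5, MCM6, CDT1, CDC45, POLE, RFC4, UHRF1, CHAF1A and E2F1. MCM7, PRIM1, PCNA, FEN1 and RRM1 were called at week 0 alone of the pair. ORC1, MCM10, POLA2, RRM2, UNG, CHAF1B, E2F2 and CCNE2 were called at week 15 alone.

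Differences between the effects at 2 weeks were tested in 1 fit of all groups and weeks, at an adjusted p under 0.05. This fit did not pair the biopsies of 1 animal. With the animal as a block, 13 members were called from week -3 to week 0 and 12 from week 0 to week 3. The block gave 23 from week 0 to week 15, 14 from week -3 to week 15 and 17 from week 15 to week 23. Between weeks -3 and 0 the effect became more negative for 11 of 39 members, against 8.19% of all genes: PRIM1 (-0.83 ± 0.18, adjusted p = 0.000145), CHAF1A (-1.20), PCNA (-0.71), FEN1 (-0.70), RRM1, PRIM2, RFC4, POLE, GINS3, MCM6 and E2F1. MCM3, MCM5, MCM7, CDT1, CDC45 and UHRF1, called lower than placebo at week 0, were not among these 11. Without the muscle biopsies there were 13, with CCNE1 and RFC3 added. From week 0, after the first low dose, to week 3, after repeated low doses, the effect became more positive for 12 members, against 1.87% of all genes. CHAF1A (1.40 ± 0.30, adjusted p = 0.000885), LIG1, which joins Okazaki fragments (0.78), POLE (1.24) and CDT1 (1.54) were among them. Leaving out the muscle biopsies reduced these 12 to 7.

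From week 0 to week 15 the effect rose for 20 of 39 members, against 2.34% of all genes, and 38 of 39 values were positive (median 0.94). UHRF1 changed most, by 3.15 ± 0.50 (adjusted p = 2.07e-06), followed by E2F1 (2.56 ± 0.45) and CDC45 (2.53 ± 0.43). CHAF1A had the lowest adjusted p (2.10 ± 0.32, 9.09e-07), and PCNA, not called at week 15 itself, changed by 1.03 ± 0.19 (adjusted p = 5.26e-05). The count was 23 without the muscle biopsies. Measured from week -3, the effect at week 15 was more positive for 14 members, against 12.5% of all genes.

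**Figure D3:**
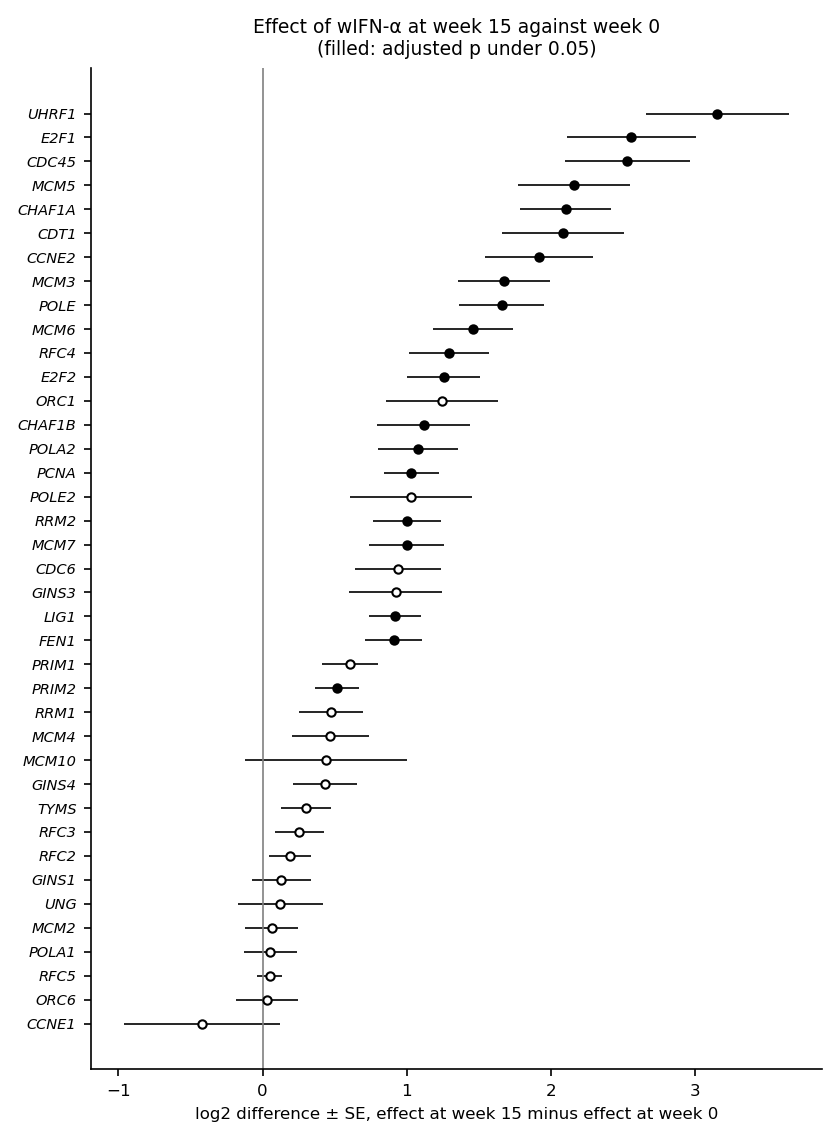
Difference between the log2 effect of wIFN-α against placebo at week 15 and that at week 0 for each of the 39 tested members, with bars of 1 SE and filled points where the adjusted p was under 0.05. Values ran from -0.42 for CCNE1, the only one below 0, to 3.15 for UHRF1, and RFC5, ORC6, POLA1 and MCM2 lay near 0.

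After treatment no member passed the test. At week 19, 3 members had an unadjusted p under 0.05, namely ORC6 (-0.50), GINS4 (0.54) and RRM2 (0.40), and at week 23 there were 5, namely MCM2 (-0.34), ORC6 (-0.54), GINS1 (0.53), GINS4 (0.56) and E2F2 (-0.61). DESeq2 called 0 members at either week. The effect at week 23 was more negative than at week 15 for 14 of 39 members, a share to be read against 14.6% of all genes, led by CCNE2 (-2.91 ± 0.43), UHRF1 (-2.40 ± 0.56), CDC45 (-1.99 ± 0.49) and E2F2 (-1.90 ± 0.29). It was 17 without the muscle biopsies.

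Averaged over all 41 members as log2(CPM + 1), an index described here without a test, the group means followed the same course, though single animals did not always do so. At week -3 it was 2.69 ± 0.13 (SD, n = 11) on wIFN-α and 2.69 ± 0.11 (n = 12) on placebo. The week 0 values were 2.55 ± 0.11 against 2.86 ± 0.20, with 5 of 11 wIFN-α animals below every placebo animal. Both groups had moved since week -3, in opposite directions: the index fell in 10 of 11 wIFN-α animals (mean change -0.14 ± 0.14) and rose in 9 of 12 placebo animals (mean change 0.17 ± 0.25). Muscle biopsies enter these changes. F1018 (2.60 to 2.49) and F1023 (2.59 to 2.53) are among the falls, and F1016 (2.55 to 2.75) is among the rises. At week 15 it was 2.94 ± 0.30 (n = 8) against 2.61 ± 0.09 (n = 9), after a rise since week 0 in 6 of 8 wIFN-α animals and a fall in 8 of 9 placebo animals. Since week -3 it had risen in 5 and fallen in 3 of the 8 wIFN-α animals, and F1018, with muscle RNA at week -3, was among those that rose. Part of each difference from placebo thus lay in the placebo group.

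**Figure D4:**
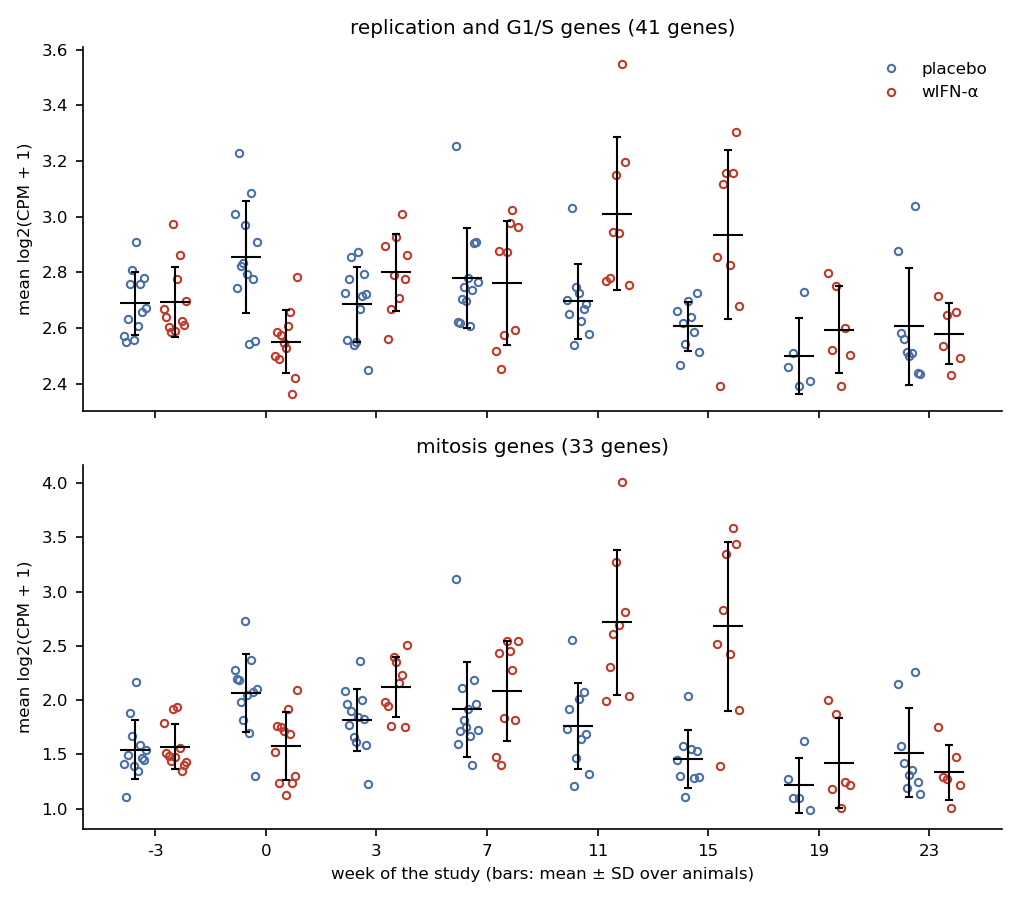
Mean log2(CPM + 1) over the 41 members (top) and over 33 mitosis genes (bottom) in every biopsy by study week, with points for animals and bars for the group mean ± SD. The wIFN-α mean of the members lay at 2.55 against 2.86 at week 0 and at 2.94 against 2.61 at week 15, and the ranges of the groups overlapped at every week.

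Among wIFN-α animals the index had an SD of 0.13 before treatment, compared with 0.22 at week 7, 0.28 at week 11 and 0.30 at week 15. At week 7 it ran from 2.45 to 3.02 on wIFN-α, with 4 of 9 animals below every placebo animal and 0 above. At week 15, 6 of 8 wIFN-α animals stood above every placebo animal, from 2.83 in F1022 to 3.30 in M1003, which was highest of its group in 20 members. F1014 stood at 2.39, below every placebo animal, and was lowest of its group in 30 members. At week 11 M1002 was the highest at 3.55, leading its group in 29 members, and without it 13 members were called in place of 16. The excluded animal M1004, at 2.38, lay below every other animal of that week, and with it included 13 members were called, without CHAF1A, POLA2 and POLE. Placebo animals could also be high: F1015 reached 3.26 at week 7, where it was highest of its group in 25 members, and M1008 reached 3.04 at week 23, highest in 21.

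Other replication genes, 44 in number, moved less uniformly. At week 0, 3 of 42 tested were higher and 7 lower (median log2 fold change -0.18), against the 10.3% and 8.15% of all genes given above. RNASEH2B, a subunit of the RNase H2 complex that removes ribonucleotides from DNA, stood at 21.9 ± 4.97 CPM (SD, n = 11) against 7.74 ± 1.62 (n = 12), and SAMHD1, a dNTP hydrolase, at 62.8 ± 13.3 against 35.7 ± 5.83 CPM. Both were called higher at the same week at which members were called lower. At week 15, 11 of 41 were higher and 1 lower (median 0.27), among them SLBP, which binds the stem-loop of replication-dependent histone mRNAs (40.7 ± 6.11 CPM, n = 8, against 15.6 ± 1.36 CPM, n = 9, a log2 fold change of 1.46 ± 0.09) and RNASEH2B (1.88 ± 0.14), and ORC5 was the lower one (-0.91).

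Of 21 other G1/S regulators tested, 2 were higher and 5 lower at week 0, and 5 higher and 1 lower at week 15. Over all genes 10.3% and 8.15% were higher and lower at week 0, and 13.4% and 8.83% at week 15, shares that also apply to the lists below. E2F3, the remaining activating E2F, was higher at both weeks (29.8 ± 3.68 against 16.0 ± 3.06 CPM at week 0 and 31.1 ± 6.72 against 15.6 ± 2.14 CPM at week 15), unlike E2F1, which was lower at week 0. CDK2, the partner of cyclin E, was higher at week 15 (32.9 ± 5.37 against 23.1 ± 2.95 CPM), and CKS1B, a subunit of cyclin-dependent kinases, was lower at week 0 (7.39 ± 2.46 against 15.5 ± 1.75 CPM). Among 16 cell cycle inhibitors, 5 were higher and 1 lower at each of weeks 0 and 15. GADD45A and GADD45B, stress-induced inhibitors, had log2 fold changes of 0.64 and 1.35 at week 0, and at week 15 GADD45A and CDKN2C, an inhibitor of CDK4 and CDK6, had 1.09 and 1.70.

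Mitosis genes differed from placebo in the same directions as the members. Their mean index on wIFN-α was 1.57 at week -3 and 1.58 at week 0, so that, unlike the member index, it did not fall. On placebo it went from 1.54 to 2.06 between these weeks. At week 0, 17 of 33 were lower and 0 higher (median log2 fold change -0.75), with MAD2L1, a spindle checkpoint gene, at 1.52 ± 0.43 against 3.57 ± 1.19 CPM and TOP2A, topoisomerase IIα, at 4.89 ± 2.29 against 11.7 ± 4.26 CPM. At week 11, 30 of 33 were higher (median 1.59), and at week 15, 31 of 33 (median 2.23), with CDC20, an activator of the anaphase-promoting complex, at 10.8 ± 7.76 against 0.817 ± 0.615 CPM, and ESPL1, the separase that parts sister chromatids, at 6.91 ± 3.71 against 1.35 ± 0.58 CPM. At weeks 19 and 23, 0 were called. F1014, lowest in the member index at week 15, was lowest of its group in the mitosis index too (1.39), and M1002, highest at week 11, was highest there (4.01).

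Markers of several other cell types differed between the groups at the same weeks. Of the T cell markers, 9 of 14 tested were higher at week 11 and 10 of 15 at week 15, when their summed level ran from 127 to 285 CPM on wIFN-α and from 53.3 to 109 CPM on placebo. At week 0 only 1 of 14 was higher, with sums of 55.4 to 164 CPM against 80.5 to 151 CPM. Markers of NK and cytotoxic cells were higher in 3 of 11 at week 0 (30.5 to 68.6 against 18.0 to 37.9 CPM) and in 7 of 11 at week 15 (40.9 to 80.8 against 18.3 to 32.8 CPM). B and plasma cell markers were higher in 2 of 10 at week 0 (43.8 to 220 against 55.5 to 228 CPM) and in 6 of 10 at week 15 (83.4 to 608 against 47.3 to 322 CPM). Cholangiocyte markers were higher in 2 of 7 at both weeks (151 to 364 against 99.7 to 169 CPM at week 0, and 171 to 236 against 99.8 to 155 CPM at week 15). Hepatocyte markers, the bulk of the tissue, were called in 1 of 12 at week 0, lower (71200 to 156239 against 80096 to 158811 CPM), and in 2 of 12 at week 15, 1 in each direction (66548 to 133670 against 72623 to 110561 CPM). Myeloid markers had 1 higher and 1 lower of 10 at each of the weeks (203 to 499 against 276 to 529 CPM at week 0, and 411 to 577 against 326 to 453 CPM at week 15). Stellate and endothelial markers had 1 higher and 2 lower of 12 at week 0 (351 to 3084 against 411 to 2561 CPM) and 1 higher and 4 lower at week 15 (355 to 770 against 361 to 5210 CPM). Erythroid markers had 0 called of 6 at week 0 and 1 lower at week 15, and skeletal muscle markers 0 of 19 at either week. None of the listed markers was at 0 in all biopsies of weeks 0 or 15. The part of these cells in the members' values was not tested.

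Placebo animals alone showed changes over the study. Across the 8 weeks 31 of 39 members differed at an adjusted p under 0.05, but so did 68% of all genes. The count was 30 without the muscle biopsies, and 36 with the animal as a block, which the main fit did not include. Against week -3, week 0 held 2 higher members, UNG (0.61) and CHAF1A (0.67), and 0 lower (3.14% and 4.89% of all genes), and week 3 held 0 in either direction, with 4 at an unadjusted p under 0.05 and 0 called by DESeq2. Week 7 held 3 higher and 2 lower (5.31% and 9.54%), week 11 held 2 and 2 (5.19% and 8.21%), week 15 held 2 and 5 (5.39% and 9.45%), week 19 held 2 and 3 (3.5% and 3.37%) and week 23 held 0 and 2 (8.75% and 10.4%). No count exceeded 5 of 39 members in either direction. Without the muscle biopsies, both directions together came to 3 in place of 2 at week 0, 6 in place of 4 at week 11 and 8 in place of 7 at week 15, and week 7 kept 5 with CCNE1 in and GINS3 out.

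GINS4 had the lowest p of the members across placebo weeks (adjusted p = 7.5e-10). Its median stood between 3.34 and 3.89 CPM at weeks -3, 0 and 3, went up to 5.64 CPM at week 7, 6.53 CPM at week 11 and 5.89 CPM at week 15, and came down to 5.43 CPM at week 19 and 4.30 CPM at week 23. All 9 placebo animals at week 15 (5.06 to 10.2 CPM) lay above all 12 at week -3 (2.45 to 4.31 CPM), a log2 fold change of 0.92 ± 0.15 (adjusted p = 2.48e-06). GINS3, another subunit of the same complex, was higher at weeks 7, 11 and 15 (0.62, 0.69 and 0.76).

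MCM10 went the other way, from a median of 33.3 CPM at week -3 and 35.3 at week 0 to 20.9 at week 3, 10.3 at week 7, 6.42 at week 11 and 6.61 at week 15, then 19.8 at week 19 and 14.6 at week 23. Its log2 fold change against week -3 was -2.07 ± 0.40 at week 11 (adjusted p = 5.28e-05) and -1.81 ± 0.42 at week 15. ORC1, the largest subunit of the origin recognition complex, was lower at weeks 7, 11 and 15 (-0.61, -0.90 and -1.09), and at week 15 CDC45 (-0.91), MCM5 (-0.83) and UHRF1 (-0.86) were lower as well. These are members that were higher on wIFN-α against placebo at week 15. The same placebo biopsies of week 15 enter both comparisons, with opposite sign, so these results are not independent.

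FEN1 had an adjusted p of 1.2e-09 across placebo weeks. The placebo median was 8.78 CPM before treatment, 12.5 CPM at week 0 and 10.8 CPM at week 3, and then 8.41, 8.42, 7.64, 6.47 and 4.94 CPM at weeks 7 to 23. The lower calls of week 23, FEN1 (-0.67) and CCNE1 (-1.02), were both lost without the muscle biopsies, which left 0 members called, and with each animal as a block 4 were called lower.

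**Figure D5:**
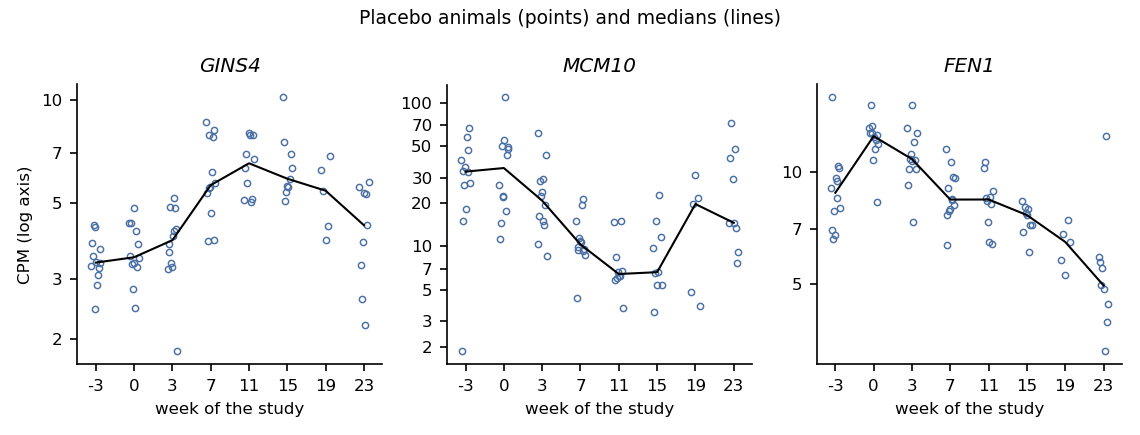
CPM (log axes) of GINS4, MCM10 and FEN1 in every placebo biopsy by study week, with points for animals and lines through the medians. Medians of GINS4 were higher at weeks 7 to 15 (5.64 to 6.53) than at week -3 (3.34), those of MCM10 were lower (6.42 to 10.3 against 33.3), and FEN1 was highest at week 0 (12.5).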

How the data were processed

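Poly(A) RNA-seq libraries of liver biopsies were made and sequenced by the authors, who mapped the reads with Bowtie2 to their woodchuck transcriptome assembly and counted them per gene with SAMtools. The deposited tables hold expected counts per gene and run, as the authors' counting left them, in which 118 of 3368023 entries are fractions, and these were rounded to whole numbers after summing. The authors also deposited RPKM values, used here only to recover gene lengths, and 3 members (ORC1, ORC6 and PCNA) carry a length of 1 kb there, as 1391 genes do, and were left out of levels per kilobase. The library kit is not stated to mark strand, so reads of overlapping genes cannot be told apart, and 0 columns of values were left without a sample.

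The 203 runs were summed to 164 biopsies, of which 149 were used, leaving out 7 of M1004 and 8 taken at death or at other weeks. Label weeks count the first treatment week as 1, so positive weeks here are 1 lower than the labels, as in the study. Counts were tested with edgeR 4.0.16 (R 4.3.3; filterByExpr, TMM, quasi-likelihood, two-sided), with Benjamini-Hochberg adjustment over all genes tested, separately at each week, in 1 fit of the placebo biopsies for the time course, and in 1 fit of all biopsies for differences between effects. CPM values are TMM-normalised over all biopsies. The script was tested on simulated data. Depth was 12072840 to 84805845 gene reads per biopsy, so counting error weighs most on the members with few reads.

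The members, gene lists and tests were chosen with earlier results of these data known. Values by group are given at weeks 0 and 15 for the member of highest mean CPM in each role group, the 3 with the lowest adjusted p among those lower at week 0, the 3 with the largest change among those higher at week 15 (mean of at least 1 CPM), the 3 with the lowest p across placebo weeks, and members called against the majority of their week; those of E2F1, RRM2, CCNE2 and CHAF1B were added after their values were seen. Of the other lists, the 2 called genes with the lowest p at week 0 and at week 15 are named, and ORC5 was added as a lone opposite call.

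Biopsies of 1 animal at different weeks are paired by the animal: in 13918 genes such biopsies deviated together from their group means, with a median r of 0.318 (wIFN-α) and 0.308 (placebo), compared with -0.022 and -0.024 between animals. Alternatives were DESeq2 1.42.0, RLE scaling, no filter, the deepest run only, no muscle biopsies, sex or the lane number of the deepest run as covariates, M1004 included, a fold of 2, all weeks in 1 fit, a replicate block for the animal, and leaving out each animal in turn (at weeks 0, 11, 15 and 19 and across placebo weeks), or each wIFN-α animal (weeks 3 and 7).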

Additional observations from a re-analysis of the deposited data

Results flagged for a closer look

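Dixon's test of a single extreme value was applied to 38 groups of 4 to 10 animals, in which chance alone marks about 1 in 20, and 6 values passed. Among placebo animals at week 11, F1017 had a member index of 3.03, above the other 9. Among those at week 15, F1021 was apart in MCM2 (62.4 CPM) and in CDC45 (1.52 CPM), M1008 in E2F2 (3.80 CPM) and F1015 in GINS4 (10.2 CPM). On wIFN-α at week 15, F1013 was apart in MCM10 (32.0 CPM). Each of these was the highest value of its group. The study reports that F1017 and M1010, both on placebo, were later euthanized with symptoms of terminal liver cancer. At week 0 the index was 3.23 in F1017, the highest on placebo, and 2.55 in M1010. Without F1017, 11 members were called at week 0 in place of 15, as without M1006, M1007 or M1008. The part of tumours in these values was not tested.

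The effect of wIFN-α differed between weeks, by the test of the difference itself, for 11 members from week -3 to week 0, 14 from week -3 to week 15, 12 from week 0 to week 3, 20 from week 0 to week 15 and 14 from week 15 to week 23. For the first and the last of these changes in effect, the shares of all genes called in the same direction were 8.19% and 14.6%.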

How the results depend on the processing

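Of the recomputed counts of members called, 268 stayed within 1.5 times the reported count and 16 did not. A fold threshold of 2 left 4 members at week 0, 1 at week 7, 9 at week 11 and 10 at week 15, and against week -3 in placebo animals 0 at week 0, 1 at week 7, 1 at week 11, 2 at week 15, 2 at week 19 and 1 at week 23. With all weeks in 1 fit and the lane number as a covariate, week 7 had 3, without CCNE1 and UNG. Without muscle biopsies the change in effect from week 0 to week 3 had 7, and placebo week 23 had 0. The lane number as a covariate in the placebo fit, chosen after seeing the data, left 1 member at week 0 and 1 at week 23. Leaving out single animals gave 11 to 19 members at week 0, 2 to 2 at week 3, 4 to 6 at week 7, 13 to 18 at week 11, 17 to 20 at week 15, 0 to 0 at week 19 and 26 to 32 across placebo weeks. At weeks 3 and 7 only wIFN-α animals were left out, and at weeks -3 and 23 none. With the animal as a replicate block, placebo week 23 had 4 members and the test across placebo weeks 36, and no other count moved beyond 1.5 times.

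Among named members, E2F2 at week 0 changed sign with all weeks and the lane number in 1 fit (-0.0092), as did GINS4 at week 15 without M1003 (-0.031, with 0.165 as the highest value when single animals were left out). Neither was called in any fit, and the cause was not tested. MCM5 at week 0 lost its call without any of 6 single animals (adjusted p = 0.0540 to 0.0765), and FEN1 without F1013 fell under the fold threshold (-0.57). Of the calls reported, 10 of 15 at week 0, 12 of 16 at week 11 and 16 of 19 at week 15 were kept whichever animal was left out. Depth limited GINS2 and TK1, too low to test.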

Other observations

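M1004, the wIFN-α animal left out, stood at 2.69 at week -3, 2.57 at week 0, 2.84 at week 3, 2.47 at week 7, 2.38 at week 11 (the other animals of that week ran from 2.54 to 3.55), 2.75 at week 15 and 2.71 at week 19. Of the biopsies at other weeks or at death, the lowest was 2.47 (M1002, week 25) and the highest 2.91 (F1020, at death).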
